A study of Mus musculus with 4 samples.

Results

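Lyz1/Ear2 macrophages were cells of the stromal vascular fraction of mouse inguinal fat that carried UMIs (unique molecular identifiers, each marking 1 captured mRNA) of lysozyme 1 or of the ribonuclease Ear2, and few of the resident macrophage genes Folr2 and Cd209f. Cells under 500 genes, or with 15% or more of their UMIs mitochondrial, were dropped. Members were selected on measured UMIs alone, as kept cells with at least 2 UMIs summed over Csf1r, Adgre1 and Cd68, at least 2 over Lyz1 and Ear2, under 2 over Folr2 and Cd209f, under 20 over S100a8 and S100a9, and none of Cd3e, Cd3d, Cd3g or Cd79a. This gate held 577 of 15721 kept cells, which came from 19218 barcodes. Cold replicate 1 gave 101 members, cold replicate 2 gave 60, room temperature replicate 1 gave 246 and room temperature replicate 2 gave 170.

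The fourth inguinal white fat depot (iWAT, also mgWAT in the labels) was taken from C57BL/6 mice 8 weeks old after 24 h at 4 °C or at room temperature, with 2 single-cell libraries for each condition. The labels name no genotype beyond the strain, give no figure for room temperature, and do not say how many animals each library came from, so p-values measure the spread between these libraries only. The tissue was minced and digested with collagenase II while warm, red cells were lysed, and the remaining cells were run on the 10x Genomics 3′ platform. Levels below are CPM, the UMIs of a gene scaled to a common total over the UMIs of all members of a library.

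Fat tissue holds several macrophage populations. Folr2-positive, Lyve1-positive and Timd4-positive macrophages sit along vessels, are largely self-renewing and clear debris, whereas Ccr2-positive macrophages with high MHC class II are replenished from blood monocytes and present antigen. Macrophages read danger through Toll-like receptors, which release NF-κB to switch on Il1b, Il6, Tnf and chemokines, and adrenal glucocorticoids hold that programme down. Resistin-like alpha (Retnla) and Ear2 are known as genes that interleukin 4 can raise, and type 2 cytokines and fat tissue macrophages have both been studied in cold-exposed fat.

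Members carried 979600 and 539888 UMIs in the cold libraries and 2039267 and 1490568 at room temperature. Their median UMIs per cell were 9986 and 7419 in cold against 7994 and 7928 at room temperature, and mitochondrial UMIs made up 2.51% and 3.14% against 3.17% and 3.14%. No barcode of a member was shared between libraries, and 1 to 8 kept barcodes were shared by each pair of libraries. Summed fibroblast markers (7 of 7 detected in all libraries but cold replicate 2, with 6) stood at 968 and 226 CPM in cold members against 2601 and 973 CPM at room temperature. Luminal epithelial markers stood at 364 and 3069 CPM against 225 and 346 CPM, and endothelial markers at 7.15 and 24.1 CPM against 64.2 and 106.0 CPM. Of the members, 49.5%, 26.7%, 68.7% and 40.6% (cold 1, cold 2, room temperature 1 and room temperature 2) held 3 or more fibroblast-marker UMIs. In the same order, 40.6%, 20%, 8.13% and 4.71% held 3 or more luminal-marker UMIs, more in both cold libraries than in either other. The B cell list stood at 73.5, 77.8, 92.7 and 135.5 CPM, and 5.94%, 10%, 6.50% and 16.5% of members held 3 or more of its UMIs. T cell, mast cell, eosinophil, adipocyte, red cell and basal epithelial lists each stayed under 35 CPM in every library. The gate set Cd3e, Cd3d and Cd3g of the T cell list and Cd79a of the B cell list to 0.

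The gate genes chose the members, so their values are a description. Lyz1 stood at 6654 and 3591 CPM in the cold and 4054 and 3201 CPM at room temperature, and Ear2 at 1798 and 1450.3 CPM against 1179 and 1198 CPM. Cold replicate 1 was the highest library for both genes. Of the members, 97.0%, 95%, 92.3% and 97.6% held an Ear2 UMI and 77.2%, 56.7%, 70.3% and 61.8% a Lyz1 UMI, in the order cold 1, cold 2, room temperature 1 and room temperature 2. Both genes were seen in 74.3%, 51.7%, 62.6% and 59.4%. The median member held 33, 2, 6 and 2 Lyz1 UMIs, and up to 304.

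At the lower edge of the gate the cells differed from the bulk of it. Just inside, 9, 7, 20 and 14 cells had exactly 2 UMIs of Lyz1 and Ear2, and just outside, 12, 15, 47 and 27 cells had 1. In the cells with 2 UMIs, Retnla stood at 138, 4627, 2497 and 299.7 CPM, against 24088, 19321, 23752 and 20897 CPM in members with 3 or more. Fcrls stood at 55.1, 52.6, 141 and 103 CPM against 884, 530.2, 1014 and 962 CPM. The cells at the edge lacked most of the Retnla and Fcrls signal, while their H2-Aa (8622, 8623, 8881 and 9643 CPM) lay above that of the other members in all 4 libraries. At the other edge, 5, 6, 39 and 13 members had 1 UMI of Folr2 and Cd209f, and 5, 1, 6 and 2 cells that passed both gates had 2. C1qa stood at 122, 339, 601 and 928 CPM in those members and at 322, 266, 386 and 325 CPM in members with none.

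Of the 5 marker genes given for the members, Lyz1 and Ear2 are the gate and say nothing further, and 1 of the other 3 set them apart from Folr2/Cd209f macrophages. That class had the same macrophage gate, at least 2 UMIs of Folr2 and Cd209f and under 2 of Lyz1 and Ear2, and held 1867 cells. Fcrls, an Fc receptor-like scavenger gene, had a mean of 796 ± 219.7 CPM (SD, n = 4 libraries) against 324 ± 82.9, and was higher in every library. Retnla had 20608 ± 2369 CPM against 21813 ± 6643 and the chemokine Ccl9 1768 ± 172 against 1524 ± 246. The ranges of Retnla overlapped between the classes, as did those of Ccl9, so these 2 markers did not set the members apart.

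Macrophage genes differed in both directions. The CSF1 receptor Csf1r, a gate gene, stood at 246 to 349.6 CPM in members and 1029 to 1392 CPM in Folr2/Cd209f macrophages. Fcgr1, the high-affinity IgG receptor, and Mertk, a receptor for dying cells, stood at 17.3 ± 3.00 and 15.8 ± 3.20 CPM (SD, n = 4) against 104 ± 60.8 and 161 ± 26.0 CPM. The complement gene C1qa was at 344 ± 64.4 CPM against 5779 ± 285. Lysozyme 2 (Lyz2), a gene of all these myeloid cells, was at 14237 ± 1496 against 9131 ± 1471 CPM. The lipopolysaccharide co-receptor gene Cd14 was higher in members in every library (608 ± 274 against 298 ± 21.7 CPM), the ranges of the integrin Itgam overlapped (317 to 459 against 267 to 351 CPM), and the gate gene Adgre1 was lower (196 to 242 against 285 to 429 CPM).

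Several genes known from monocyte-derived, antigen-presenting macrophages were higher than in Folr2/Cd209f macrophages. The chemokine receptor Ccr2 stood at 1134 and 1017 CPM in the cold and 1089 and 992 CPM at room temperature, and its mean of 1058 ± 65.5 CPM compares with 75.5 ± 40.8 in Folr2/Cd209f macrophages. The MHC class II chain H2-Aa had 7898 ± 284 against 1563 ± 423 CPM, fibronectin (Fn1) 3348 ± 566 against 75.0 ± 57.3, and the integrin Itgax 70.8 ± 12.8 against 1.44 ± 1.11. For each of these genes the lowest library of the members lay above the highest library of the other class. Other classes shared part of this, since dendritic cells had 8622 CPM of H2-Aa and the remaining gated macrophages (434 cells) had 75.6 CPM of Itgax.

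Resident macrophage genes and the monocyte genes Ly6c2 and Plac8 were low. Ccr2, also a monocyte gene, was not, with a mean of 1058 CPM in members against 592 in Ly6c2 monocytes. Lyve1 stood at 0 to 1.96 CPM in members against 812 to 1580.1 in Folr2/Cd209f macrophages, Timd4 at 0 to 2.04 against 156 to 189, and the chemokine Pf4 at 37.6 to 98.0 against 2261 to 2675. Ly6c2 monocytes (77 cells) had the same macrophage gate, at least 2 UMIs of Ly6c2, and under 2 over Lyz1 and Ear2 and over Folr2 and Cd209f. Their high Ly6c2 was therefore set by selection. Ly6c2, the classical monocyte marker, stood at 4.08 to 38.7 CPM in members against 739.7 to 1209 in that class. Of the members, 3, 6, 15 and 12 held a Ly6c2 UMI. Plac8 stood at 143 to 320.4 CPM against 1963 to 3505 in those monocytes. Of the other Ear ribonucleases, Ear1 reached at most 2.04 CPM and Ear6 and Ear10 had no UMI in members, and the eosinophil list, including Siglecf, was at 0 in both cold libraries and at 4.41 and 2.01 CPM at room temperature.

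Dendritic markers were partly present. Cd209a, a lectin of type 2 conventional dendritic cells and monocyte-derived cells, stood at 143 to 189 CPM, Flt3 at 6.37 to 14.8 CPM, Zbtb46 at 5.37 to 9.26 CPM and Xcr1 at 0 to 5.56 CPM. Of the members, 15.8%, 20%, 17.1% and 13.5% held 3 or more UMIs over the dendritic list. The name Lyz1/Ear2 macrophages is kept below for the cells the gate holds.

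**Figure D1:**
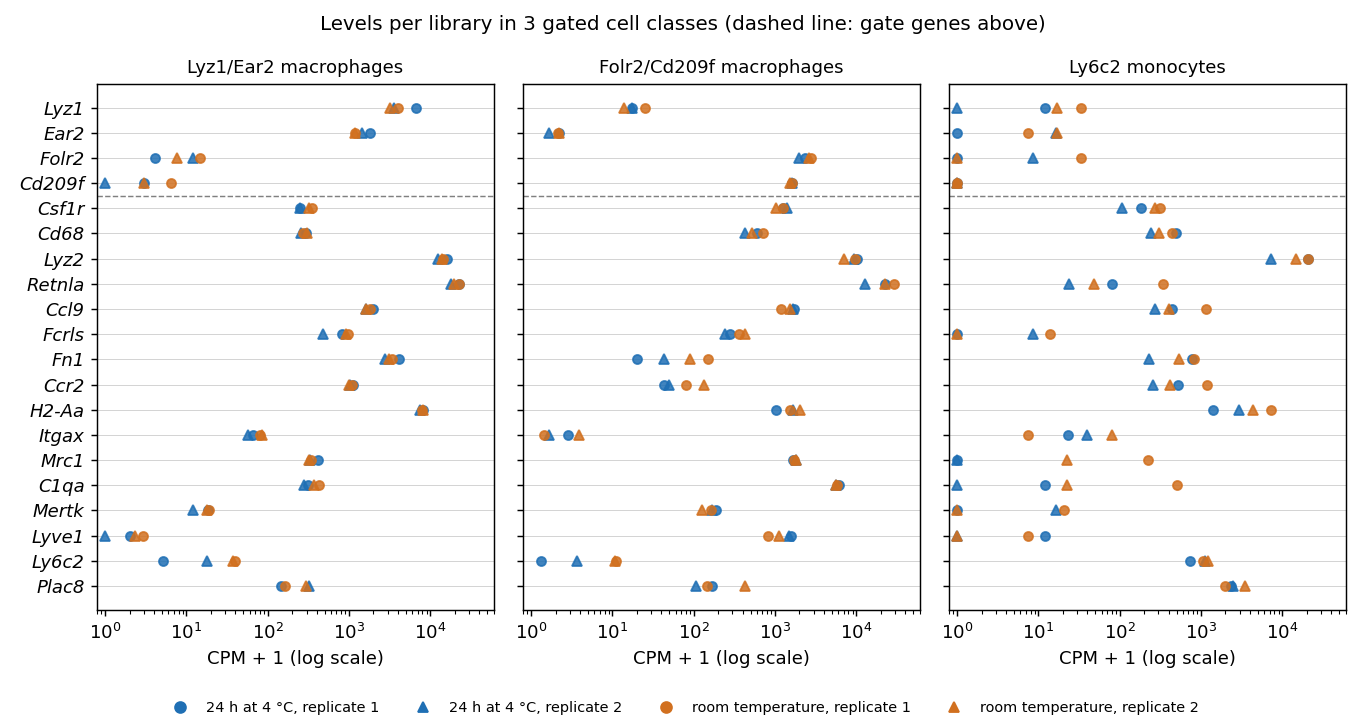
Levels of 20 genes (CPM + 1, log axis) in Lyz1/Ear2 macrophages, Folr2/Cd209f macrophages and Ly6c2 monocytes, 1 point per library. The gate genes Lyz1, Ear2, Folr2 and Cd209f lie above the dashed line. The gate genes Csf1r and Cd68, and Ly6c2, which chose the Ly6c2 monocytes, lie below it. In Lyz1/Ear2 macrophages Fn1, Ccr2, H2-Aa and Itgax lie to the right of the Folr2/Cd209f points, C1qa, Mertk, Mrc1 and Lyve1 lie to the left, and Retnla and Ccl9 overlap.

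The members were not uniform. Those with a Lyz1 UMI had a higher median depth (10340, 7756, 9366 and 8853 UMIs) than those selected through Ear2 alone (7506, 7076, 5649 and 7046). Retnla stood at 25059.9, 22359, 26386 and 25485 CPM in Lyz1-positive members and at 11102, 9879.7, 10559 and 8071 CPM in Lyz1-negative ones. C1qa stood at 367, 401, 529 and 468 CPM against 67.4, 65.5, 64.8 and 166 CPM. In all 4 libraries both genes were higher in the Lyz1-positive members, as were Fn1, the lysosomal protease Ctsd, Cd14 and the chemokine Cxcl2.

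Lyz1-negative members carried another set of genes. Cd209a stood at 384, 473, 525 and 505 CPM against 83.9, 23.4, 67.9 and 24.4 CPM in Lyz1-positive members. Chil3, a chitinase-like secreted protein of monocytes and alternatively activated macrophages, stood at 721, 614, 153 and 229 CPM against 28.0, 46.9, 27.3 and 44.7 CPM. The lectins Mgl2 and Clec10a and the monocyte gene Plac8 were likewise higher in Lyz1-negative members in every library. H2-Aa was higher in them too, by less, at 7673, 7079, 7719 and 8076 CPM in Lyz1-positive and 9587, 8178, 8749 and 8169 CPM in Lyz1-negative members. The genes named here were picked after their values were seen, and the split uses a gate gene, so no test is given.

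Lyz1/Ear2 macrophages made up a smaller share of the cells in cold. They were 2.49% (95% exact binomial interval 2.03 to 3.01) and 1.97% (1.51 to 2.53) of kept cells in the cold libraries and 4.50% (3.96 to 5.08) and 5.41% (4.64 to 6.26) at room temperature. Both cold libraries lay below both room temperature libraries. The means were 2.23% ± 0.365 and 4.95% ± 0.644 (SD, n = 2 each), a difference of -2.72 percentage points and a ratio of 0.45. The exact two-sided permutation test over libraries gave p = 0.333, the smallest it can give with 2 libraries against 2.

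Their share among all gated macrophages overlapped between the conditions at full depth. It was 17.8% and 18.4% in cold and 16.0% and 24.0% at room temperature (18.1% ± 0.463 against 20% ± 5.71, SD, n = 2 each, exact permutation p = 1). The room temperature libraries lay on either side of both cold libraries, and without room temperature replicate 2 the difference of -1.93 percentage points became 2.10. Folr2/Cd209f macrophages fell on the same side, at 7.25% ± 1.90 of kept cells in cold and 14.8% ± 4.01 at room temperature. With every cell thinned to 2000 UMIs, members were 1.10% and 0.869% against 2.39% and 3.19% of the cells that deep. Their share of gated macrophages was then 9.36% and 8.85% in cold against 9.87% and 17.1% at room temperature, a difference of -4.37 percentage points without overlap (exact permutation p = 0.333, the smallest possible). With cells that held 3 or more UMIs of another lineage's markers left out of the members, 32, 35, 72 and 76 remained. These were 0.788% and 1.15% against 1.32% and 2.42% of all kept cells, a total this filter left unchanged. A share of cells does not show how many cells the depot held, and dissociation yield was not measured.

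**Figure D2:**
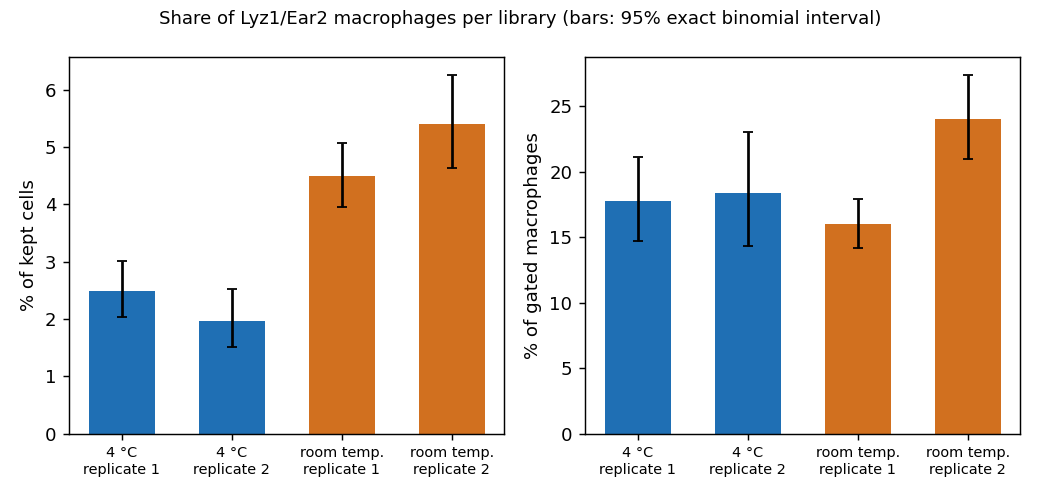
Lyz1/Ear2 macrophages as a percentage of kept cells (left) and of gated macrophages (right), 1 bar per library, with 95% exact binomial intervals that cover counting error only. On the left both cold bars (2.49% and 1.97%) stand below both room temperature bars (4.50% and 5.41%), and on the right the room temperature bars (16.0% and 24.0%) enclose the cold ones.

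Cold changed few genes of these cells past the threshold, mostly downwards, with NF-κB and cytokine genes among those lower and inducible chaperones and glucocorticoid-response genes among those higher. Of 8186 genes tested with edgeR's quasi-likelihood test, 66 passed an adjusted p of 0.05, 0.806% of those tested, 17 of them higher in cold (0.208%) and 49 lower (0.599%). At an unadjusted p under 0.05 there were 1011, and the median log2 fold change of all genes tested was 0.01. Cold and room temperature libraries did not overlap for 44% of the genes tested, and for 66 of the 66 called. Leaving out cold replicate 1 gave 471 called genes and leaving out cold replicate 2 gave 178. Leaving out room temperature replicate 1 gave 162, and leaving out room temperature replicate 2 gave 197. Every library left out raised the count, and DESeq2 called 95. A fit with a library left out has 1 library in that condition, so its p-values hold no spread between libraries there. In simulated libraries of these sizes the test called 33.3% of genes changed by 1 on the log2 scale and 80.6% of those changed by 2.

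**Figure D3:**
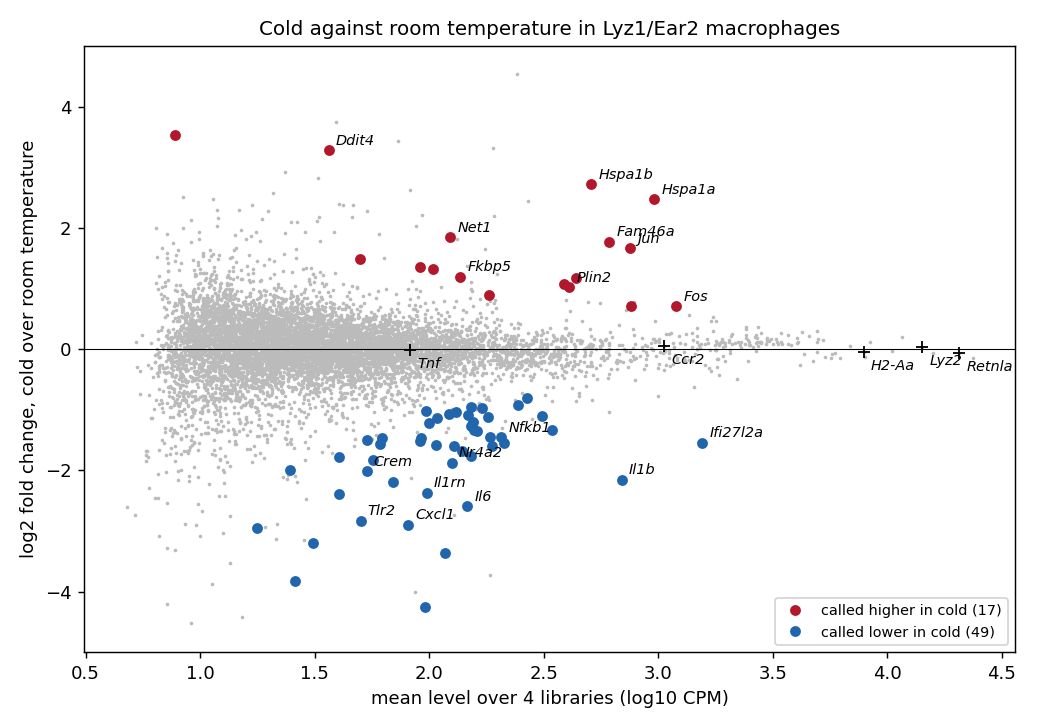
Log2 fold change of cold over room temperature (vertical axis) against mean level (log10 CPM, horizontal axis) for the 8186 genes tested in Lyz1/Ear2 macrophages, 1 point per gene. The 17 genes called higher are red and the 49 called lower blue, and crosses mark Tnf, Retnla, H2-Aa, Lyz2 and Ccr2, which lie near 0 and did not pass. Gzma, called lower with no UMI in cold, lies outside the axis.

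Secreted cytokine genes were among those that fell. Il1b, the gene of interleukin 1 beta (chr2:129364570-129371139, minus strand, GRCm38), stood at 154 and 369 CPM in the cold and 1268 and 985 CPM at room temperature. Both cold libraries were far below both others, and cold replicate 2 was the higher of the cold pair. The log2 fold change was -2.16 (SE 0.32, adjusted p = 0.0216). Thinned to 2000 UMIs per cell, 16.8% and 16.1% of cold members and 45.9% and 43.0% of room temperature members held an Il1b UMI (unthinned 29.7%, 35.0%, 55.3% and 55.3%), against 0.298%, 2.82%, 3.74% and 4.75% of Folr2/Cd209f macrophages at the same depth. Fewer members carried the transcript in cold, and it was concentrated, since the 10% of members richest in Il1b held 78.1% and 87.4% of its UMIs in cold and 59.8% and 55.5% at room temperature.

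Neutrophils had the highest mean Il1b of the other cell classes compared, and the highest library of the members stood at 15.3% of it. Their marker list was at 13.3 and 13 CPM in cold members and 13.2 and 18.1 CPM at room temperature, with S100a8, which the gate limits, Retnlg and Ly6g at 0 or near it. The part of neutrophil RNA in the Il1b levels was not tested. Within Lyz1-positive members, a split by a gate gene, Il1b stood at 150.0 and 79.1 CPM in cold against 1329 and 777 CPM at room temperature, and the groups did not overlap. Within Lyz1-negative members they came closer, at 171 and 866 CPM against 1062 and 1388 CPM.

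Il6 (chr5:30013114-30019981, plus strand, GRCm38), the interleukin 6 gene, stood at 48.0 and 33.3 CPM in the cold and 344 and 162 CPM at room temperature, a log2 fold change of -2.59 (SE 0.39, adjusted p = 0.0233). The room temperature libraries differed from each other by more than the cold ones, yet no value overlapped. Of the cell classes compared, which left out cells of both gates and the other gated macrophages, members had the highest mean Il6 (147 CPM). Fibroblasts came next with a mean of 59.4 CPM. The highest library of the members stood at 579% of that mean, and both cold libraries lay below it. Il1rn, the natural blocker of the interleukin 1 receptor, fell as well, from 183 and 148 CPM to 41.9 and 16.7 CPM (-2.37, SE 0.32, adjusted p = 0.0157).

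Tnf (chr17:35199381-35202007, minus strand, GRCm38), the gene of tumour necrosis factor, did not pass. It stood at 91.9 and 70.4 CPM in the cold and 100.0 and 67.1 CPM at room temperature, a log2 fold change of -0.02 (SE 0.25, adjusted p = 0.994). The groups overlapped, and over 15 alternatives the value ran from -0.51 to 0.30 with adjusted p from 0.423 to 1.00. Its sign turned without cold replicate 2 (0.16) and without room temperature replicate 1 (0.30). Il1b and Il6 fell in cold, whereas the Tnf values of the conditions overlapped.

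Among receptors, Tlr2, which senses bacterial lipoproteins, stood at 8.17 and 18.5 CPM in the cold and 82.9 and 91.2 CPM at room temperature. Cold members had only a small part of the room temperature level in both libraries, a log2 fold change of -2.83 (SE 0.30, adjusted p = 0.00709). Further down the pathway, the NF-κB subunit gene Rel stood at 101 and 83.4 CPM against 286 and 284 CPM (-1.60, SE 0.17, adjusted p = 0.00709). The subunit gene Nfkb1 stood at 125 and 92.6 CPM against 315 and 295 CPM (-1.45, adjusted p = 0.0143). For these 3 genes the conditions did not overlap. The replicates lay close together for Rel and Nfkb1, while the cold pair of Tlr2 lay further apart and both stayed far below room temperature.

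Some inhibitors and adaptors of the pathway, named after their values were seen, also passed. The IκB family genes Nfkbie (-1.77, adjusted p = 0.0179), Nfkbid (-1.36, adjusted p = 0.0143) and Bcl3 (-1.51, adjusted p = 0.0357) fell. So did Tnfaip3 (-0.93, adjusted p = 0.0307), which encodes the feedback inhibitor A20, and Malt1 (-1.52, adjusted p = 0.0133), a protease that relays receptor signals to NF-κB. The main inhibitor gene Nfkbia, at 951 and 893 against 1196 and 1008 CPM, did not pass (-0.25, adjusted p = 0.496).

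Of the list of 25 inflammatory cytokines and NF-κB targets, 21 were tested, 0 rose and 6 fell (Il1b, Il6, Tlr2, Rel, Nfkb1 and Tnfaip3), against 0.599% of all genes tested called lower. All 21 log2 fold changes were below 0, from -2.83 to -0.02, with a median of -1.15 beside 0.01 over all genes. This and the other gene lists were chosen with earlier results of these data known, so their counts and medians are a description. The prostaglandin synthase Ptgs2 (-2.13, adjusted p = 0.128), the inflammasome sensor Nlrp3 (-1.48, adjusted p = 0.139) and the adhesion gene Icam1 (-1.30, adjusted p = 0.0855) did not pass on their own. In Folr2/Cd209f macrophages of the same libraries the list's median was -0.81.

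**Figure D4:**
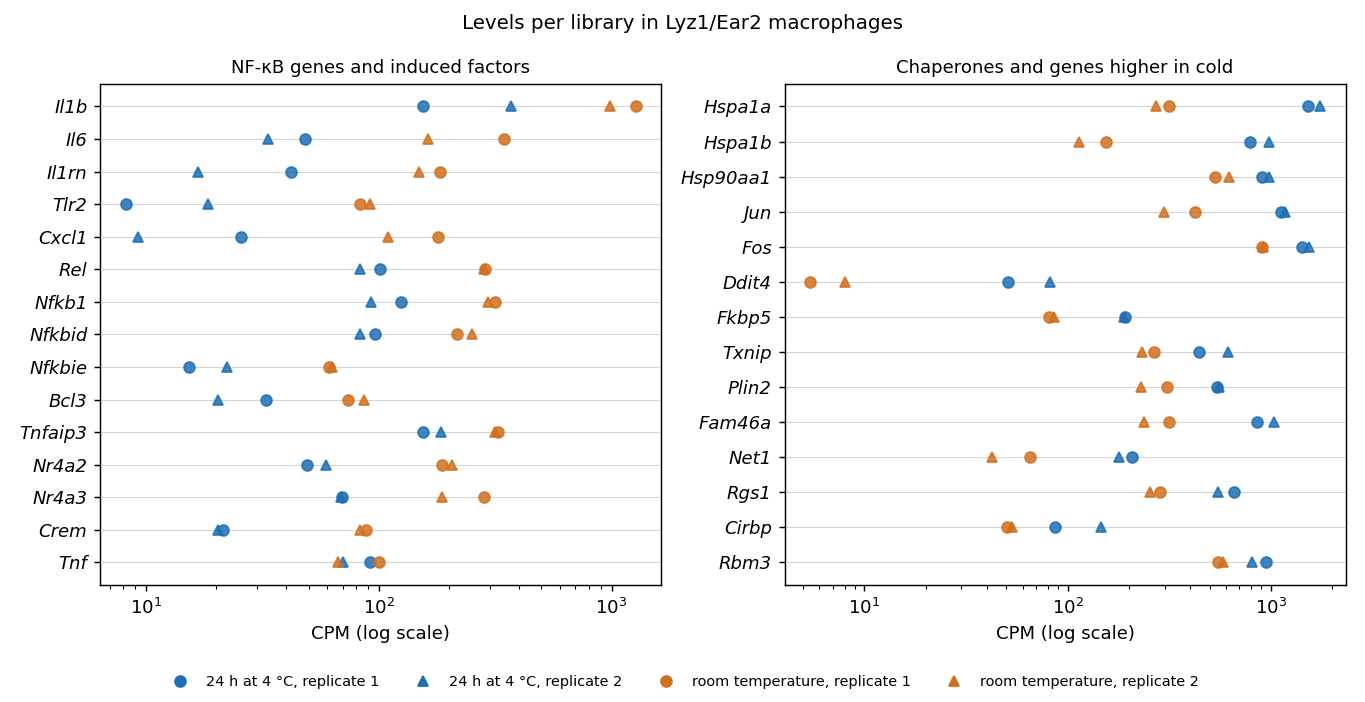
Levels per library (CPM, log axis) of NF-κB genes and induced factors (left) and of chaperones and genes higher in cold (right) in Lyz1/Ear2 macrophages, 1 point per library. On the left the cold points lie below the room temperature points for every gene but Tnf, and on the right they lie above them for every gene, of which Cirbp and Rbm3 did not pass the test.

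Promoter windows of the genes that fell are shown because NF-κB genes and their targets were among them. Each window runs from 250 bases before to 50 after a start site (RefSeq, GRCm38.p6), is written 5′ to 3′ on the gene's strand, and has matches to the NF-κB consensus decamer on either strand in capitals, where overlapping matches run together.

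Cxcl1 (chr5:90890995-90891294, plus strand): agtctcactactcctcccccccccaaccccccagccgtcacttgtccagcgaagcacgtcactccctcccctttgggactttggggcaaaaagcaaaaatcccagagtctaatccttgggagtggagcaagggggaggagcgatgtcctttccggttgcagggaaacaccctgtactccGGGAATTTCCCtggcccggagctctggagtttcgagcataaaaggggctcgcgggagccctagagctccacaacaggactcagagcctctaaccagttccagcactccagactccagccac

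Il6 (chr5:30012864-30013163, plus strand): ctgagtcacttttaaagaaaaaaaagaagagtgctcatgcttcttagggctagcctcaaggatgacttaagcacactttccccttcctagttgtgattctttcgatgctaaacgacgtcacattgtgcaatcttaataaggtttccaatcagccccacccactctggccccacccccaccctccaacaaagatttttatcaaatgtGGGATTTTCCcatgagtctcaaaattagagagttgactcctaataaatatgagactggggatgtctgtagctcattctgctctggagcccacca

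Rel (chr11:23770920-23771219, minus strand): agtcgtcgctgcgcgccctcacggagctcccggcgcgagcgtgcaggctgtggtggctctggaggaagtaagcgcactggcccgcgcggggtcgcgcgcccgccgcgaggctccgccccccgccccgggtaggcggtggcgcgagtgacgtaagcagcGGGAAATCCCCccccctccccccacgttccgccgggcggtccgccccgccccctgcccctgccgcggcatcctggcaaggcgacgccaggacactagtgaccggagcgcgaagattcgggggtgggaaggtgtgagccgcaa

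Cxcl1 and Rel each hold 2 overlapping matches and Il6 holds 1, while the windows of Il1b and Tnf hold none. Called genes were counted only with a mean of at least 20 CPM, a cut not made for the 6518 tested genes with a window. A window was found for 36 such genes called lower, and 15 of these (41.7%) held the decamer. Of the 6518 tested genes, 802 (12.3%) held it. Among the genes called higher, 4 of 12 with a window (33.3%) held it. These 4 include Hspa1a and Hspa1b, whose near-identical windows were counted separately. On the list of inflammatory cytokines and NF-κB targets it was 7 of 15, a share that the choice of known targets in part sets. A match is a description of the letters in the window and does not show that a factor bound there.

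Chemokines were mixed. Cxcl1, a neutrophil attractant, stood at 25.5 and 9.26 CPM in the cold and 180.0 and 109 CPM at room temperature, without overlap (-2.90, SE 0.40, adjusted p = 0.0165). Fibroblasts had more Cxcl1 than members, whose highest library stood at 47.7% of the fibroblast mean. The fibroblast list in members was lower in cold replicate 2 than in either room temperature library. Cold replicate 1 was level with room temperature replicate 2. With cells that held 3 or more UMIs of another lineage's markers left out, Cxcl1 was again called lower (adjusted p = 0.00019, 4171 genes tested). Members with fewer such UMIs stayed in, and the part of fibroblast RNA in this fall was not tested. Cxcl2, another neutrophil attractant and one of the highest chemokines here, stood at 1705 and 1441 CPM against 2736 and 1495 CPM and did not pass (-0.42, adjusted p = 0.554).

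The monocyte attractant Ccl2, at 231 and 150.0 against 298 and 232 CPM, did not pass (-0.44, adjusted p = 0.491). Its log2 fold change ran from -0.88, without cold replicate 1, to -0.10 over 15 alternatives. Of 16 chemokine genes tested, 0 rose and 2 fell, Cxcl1 and Ccl5, against 0.599% of all genes called lower, with a median log2 fold change of -0.89. Ccl5, a lymphocyte chemokine, stood at 4.08 and 9.26 against 70.1 and 40.9 CPM. Its highest library was at 0.65% of the mean of natural killer and innate lymphoid cells. The list of natural killer and innate lymphoid markers was at 39.8 and 198 CPM in cold members and 88.8 and 89.2 CPM at room temperature, and its part was not tested. Ccl9 and Ccl6 did not pass (0.06 and 0.11, adjusted p = 0.912 and 0.796).

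Interferon-stimulated genes lay mostly lower in cold, and 2 passed the test. Ifi27l2a stood at 856 and 719 CPM in the cold and 2059 and 2588 CPM at room temperature, with no overlap (-1.54, SE 0.15, adjusted p = 0.00501). The ubiquitin-like gene Isg15 stood at 42.9 and 90.8 CPM against 189.8 and 192 CPM (-1.59, SE 0.27, adjusted p = 0.0396). Of 23 such genes tested, 0 rose and these 2 fell, against 0.599% of all genes called lower, 20 were below 0, and the median was -0.89. Irf7, the factor that amplifies the interferon response, did not pass (-1.18, adjusted p = 0.276).

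The nuclear receptor genes Nr4a2 and Nr4a3 and the cyclic AMP-responsive gene Crem fell. Nr4a2 and Nr4a3 encode orphan nuclear receptors that are induced within minutes of stimulation. Nr4a2 stood at 49.0 and 59.3 CPM in the cold and 188 and 207 CPM at room temperature (-1.87, SE 0.18, adjusted p = 0.00501). Nr4a3 stood at 69.4 and 68.5 against 283 and 187 CPM (-1.76, SE 0.24, adjusted p = 0.0165). Crem, a modulator of cyclic AMP-responsive transcription, stood at 21.4 and 20.4 against 88.3 and 83.2 CPM (-2.01, SE 0.22, adjusted p = 0.00709). All 3 genes had cold replicates close together and below both room temperature replicates.

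Nr4a1, of the same family, did not pass (-0.28, adjusted p = 0.452). The repressor genes Etv3 (-1.67, adjusted p = 0.00777) and Nfil3 (-1.07, adjusted p = 0.0245), the second also a clock output factor, fell. So did Arl5b, a small GTPase gene of vesicle traffic, at 22.5 and 27.8 against 111 and 117 CPM (-2.20, adjusted p = 0.00501).

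The immediate early genes did not move as 1 group. Of 23 tested, 2 rose (Jun and Fos) and 2 fell (Nr4a2 and Nr4a3), against 0.208% and 0.599% of all genes, with a median of -0.28. Jun, a subunit of the factor AP-1, stood at 1119 and 1174 CPM in the cold and 425 and 299.9 CPM at room temperature (1.66, SE 0.18, adjusted p = 0.00709). Its partner Fos stood at 1418 and 1552 CPM against 904 and 920.5 CPM (0.71, SE 0.11, adjusted p = 0.0216). The Jun groups lay well apart, while the Fos call was lost when either room temperature library was left out (0.69, adjusted p = 0.0521 without replicate 1, and 0.69, adjusted p = 0.0745 without replicate 2), and was kept in 8 of 15 alternatives (adjusted p from 1.97e-05 to 0.224). Junb, Egr1 and Atf3 did not pass (0.11, 0.77 and 0.46, adjusted p = 0.757, 0.281 and 0.157). Fosl2, an AP-1 family gene not on this list, was called lower (-1.11, SE 0.14, adjusted p = 0.0143). It stood at 200 and 191 CPM in the cold and 402 and 447 CPM at room temperature.

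Inducible HSP70 genes showed the smallest adjusted p-values of all. Hspa1a (chr17:34969190-34972156, minus strand, GRCm38) and its neighbour Hspa1b encode the same stress-induced chaperone, which refolds damaged proteins. Hspa1a stood at 1518 and 1749 CPM in the cold and 317 and 272 CPM at room temperature, a log2 fold change of 2.47 (SE 0.14, adjusted p = 0.00028). Hspa1b stood at 795 and 978 against 154 and 113 CPM (2.72, SE 0.19, adjusted p = 0.00088). For both genes the replicates lay close together and the conditions far apart. As the genes are near-identical copies, the division of UMIs between them is uncertain, while they moved in the same direction.

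More of the members held Hspa1a in cold, and the part of free RNA in this was not tested. Thinned to 2000 UMIs, 64.4% and 64.3% of cold members held an Hspa1a UMI against 29.9% and 17.6% at room temperature (unthinned 86.1%, 76.7%, 50% and 40.0%). The thinned shares in Folr2/Cd209f macrophages were 72.3%, 76.8%, 62.9% and 56.4%. In Lyz1-positive members Hspa1a stood at 1327 and 1365 CPM in cold against 241 and 216 CPM. In Lyz1-negative ones it stood at 2298 and 2407 against 577 and 381 CPM.

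The promoter windows of the pair, given on the minus strand with the heat shock element unit pair GAANNTTC in capitals, show how alike the copies are.

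Hspa1a (chr17:34972107-34972406, minus strand): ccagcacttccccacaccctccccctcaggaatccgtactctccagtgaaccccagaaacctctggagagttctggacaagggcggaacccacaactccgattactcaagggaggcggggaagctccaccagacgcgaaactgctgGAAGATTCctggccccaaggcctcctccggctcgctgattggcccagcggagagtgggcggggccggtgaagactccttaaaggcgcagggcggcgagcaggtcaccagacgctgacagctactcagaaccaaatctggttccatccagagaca

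Hspa1b (chr17:34959189-34959488, minus strand): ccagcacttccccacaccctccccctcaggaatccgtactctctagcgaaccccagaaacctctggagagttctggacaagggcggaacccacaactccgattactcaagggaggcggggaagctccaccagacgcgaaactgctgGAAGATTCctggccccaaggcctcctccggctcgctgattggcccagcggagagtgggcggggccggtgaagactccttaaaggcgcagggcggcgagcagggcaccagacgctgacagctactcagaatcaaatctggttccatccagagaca

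The windows (RefSeq, GRCm38.p6) share 296 of 300 bases, 98.7%, and each holds 1 such unit pair at the same place, as well as 1 match to the NF-κB decamer that is left in lower case. GAANNTTC reads the same on both strands, and it occurs in 441 of 6518 tested genes with a window (6.77%), in 4 of 12 called higher and in 5 of 36 called lower. The 4 called higher include Hspa1a and Hspa1b, whose near-identical windows were counted separately.

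The cytosolic chaperone gene Hsp90aa1 stood at 908 and 976 CPM in the cold and 535 and 619.9 CPM at room temperature (0.71, SE 0.12, adjusted p = 0.0378). That call was lost when either room temperature library was left out (0.60, adjusted p = 0.215 without replicate 1, and 0.79, adjusted p = 0.0592 without replicate 2), and was kept in 11 of 15 alternatives (adjusted p from 0.000447 to 0.215). Of 17 chaperone genes tested, 3 rose and 0 fell, against 0.208% of all genes called higher, and the median was 0.13. The constitutive HSP70 gene Hspa8 and Hsp90ab1 did not pass (0.11 and 0.02, adjusted p = 0.718 and 0.973), nor did the co-chaperones Dnajb1 (1.02, adjusted p = 0.0915) and Hsph1 (0.88, adjusted p = 0.123).

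Glucocorticoid-response genes included the steepest named rise. Ddit4, an inhibitor of the growth kinase mTORC1 that corticosteroids and stress induce, stood at 51.0 and 81.5 CPM in the cold and 5.39 and 8.05 CPM at room temperature. It was low in both room temperature libraries and higher without overlap in both cold ones (3.28, SE 0.35, adjusted p = 0.00709). Thinned to 2000 UMIs, 9.90% and 14.3% of cold members held a Ddit4 UMI against 0.433% and 1.21% (unthinned 28.7%, 36.7%, 3.66% and 5.88%), and 28.3%, 23.2%, 2.49% and 2.08% of Folr2/Cd209f macrophages did.

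Fkbp5, a chaperone that damps the glucocorticoid receptor and is one of its direct targets, stood at 191 and 189 CPM against 81.4 and 85.9 CPM (1.19, SE 0.16, adjusted p = 0.0151). Txnip, an inhibitor of thioredoxin and of glucose uptake, stood at 443 and 617 against 267 and 231 CPM (1.08, SE 0.17, adjusted p = 0.0307). The Txnip call was lost with cells carrying 3 or more UMIs of another lineage's markers left out (0.50, adjusted p = 0.230, with 1.39e-06 to 0.230 over 15 alternatives). The replicates of Fkbp5 nearly coincided within each condition. Of 21 glucocorticoid-response genes tested, these 3 rose and 0 fell, against 0.208% of all genes called higher, and the median was 0.20. The classical targets Klf9 (0.99, adjusted p = 0.0507), Tsc22d3 (0.61, adjusted p = 0.16) and Per1 (-0.04, adjusted p = 0.972) did not pass, and the metallothionein genes Mt1 and Mt2 had values below 0 (-0.77 and -0.96, adjusted p = 0.0735 and 0.123).

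Other genes that rose had varied roles. Of 18 lipid-associated macrophage genes tested, 1 rose and 0 fell, against 0.208% of all genes called higher. The list had 10 values above and 8 below 0 and a median of 0.09. The gene that rose, Plin2, coats lipid droplets. It stood at 543 and 554 CPM in cold and 309 and 230.1 CPM at room temperature (1.02, SE 0.17, adjusted p = 0.0357). Its call was lost without room temperature replicate 2 (0.80, adjusted p = 0.116) and kept in 14 of 15 alternatives (adjusted p from 4.56e-06). Rgs1, which shortens chemokine receptor signals, stood at 661 and 552 against 284 and 256 CPM (1.18, adjusted p = 0.0151). Cold libraries were higher without overlap for both genes.

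Fam46a, a poly(A) polymerase family gene, stood at 856 and 1041 against 316 and 238 CPM (1.77, adjusted p = 0.00501). Net1, an exchange factor for the GTPase RhoA, stood at 208 and 179.7 against 65.2 and 42.3 CPM (1.85, adjusted p = 0.0143), and Palld, an actin-bundling gene, at 75.5 and 70.4 against 26.0 and 26.8 CPM (1.48, adjusted p = 0.0165). The linker histone gene Hist1h1c also rose (1.36, adjusted p = 0.0151). In each the lower cold library was above the higher room temperature one by more than the gap between replicates.

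Cold-inducible RNA-binding protein genes lay higher in cold without passing. Cirbp stood at 86.8 and 146 CPM against 50.5 and 53.0 CPM (1.13, SE 0.24, adjusted p = 0.0735) and Rbm3 at 952 and 811 against 552 and 580.3 CPM (0.65, SE 0.13, adjusted p = 0.0726). The groups did not overlap for either gene, as for 44% of all genes tested. In Folr2/Cd209f macrophages both passed (0.92, adjusted p = 0.0169, and 0.69, adjusted p = 0.0266), and the differences between the classes did not (adjusted p = 0.91 and 0.96). Cirbp passed when cold replicate 1 (1.45, adjusted p = 0.000264) or either room temperature library was left out (1.10, adjusted p = 0.0493 without replicate 1, and 1.14, adjusted p = 0.0343 without replicate 2), over a range of 0.000114 to 0.155 in 15 alternatives. Rbm3 passed without cold replicate 1 (0.47, adjusted p = 0.0279) and without cold replicate 2 (0.79, adjusted p = 0.00295), over a range to 0.231.

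Of 17 reactive oxygen and antioxidant genes tested, 0 rose and 1 fell, against 0.599% of all genes called lower, with 7 values above and 10 below 0 and a median of -0.13. Nfe2l2, the master factor of the antioxidant response, fell from 237 and 258 CPM to 115 and 109 CPM (-1.13, adjusted p = 0.0165), and its target Txnrd1, the 1 gene of that list, from 138 and 121 to 62.3 and 64.8 CPM (-1.03, adjusted p = 0.0454), a call lost without room temperature replicate 1 (-0.93, adjusted p = 0.0732, with 0.000125 to 0.0857 over 15 alternatives). Of 20 cell cycle genes tested, 0 rose and 1 fell, the microtubule regulator Stmn1 (-1.27, adjusted p = 0.019), against 0.599% of all genes called lower. That call was lost with dendritic marker cells left out (-1.72, adjusted p = 0.206, with 7.27e-08 to 0.206 over 15 alternatives). All 20 values were below 0 with a median of -0.85. Mki67 stood at 32.7 and 11.1 CPM against 59.3 and 54.3 CPM and did not pass (-1.22, adjusted p = 0.185).

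The macrophage genes given in this paragraph did not pass with all libraries. Fcrls stood at 823 and 480 CPM in cold and 974 and 906 CPM at room temperature, without overlap (-0.50, adjusted p = 0.422). Retnla stood at 22313 and 17768 CPM in the cold and 22792 and 19560.3 CPM at room temperature (-0.07, SE 0.13, adjusted p = 0.894), and the groups overlapped. Ccr2 (0.06, SE 0.13, adjusted p = 0.911), H2-Aa (-0.04, SE 0.09, adjusted p = 0.911), Lyz2 (0.04, SE 0.13, adjusted p = 0.953), Mrc1 (0.20, SE 0.16, adjusted p = 0.663) and Ccl9 all lay within 0.20 of 0. C1qa (-0.42, adjusted p = 0.311) and the fractalkine receptor gene Cx3cr1 (0.70, adjusted p = 0.281) did not pass, and the growth factor gene Igf1 had no UMI in cold replicate 2 and 14.8 to 18.4 CPM in the other libraries. Cold replicate 2 was the lowest of the libraries for Retnla, Lyz2 and Fcrls and cold replicate 1 the highest for Lyz2. Without cold replicate 1, which leaves 1 cold library, the log2 fold changes were -0.31 for Retnla, -0.22 for Lyz2 and -1.02 for Fcrls. Without cold replicate 2, Lyz2 had 0.24. Over 15 alternatives the adjusted p ran to 1.00 for Retnla, Lyz2 and Fcrls.

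With all libraries, calls in either direction were 0 of 10 MHC class II, 0 of 13 alternative activation and 0 of 11 complement genes. The counts were also 0 of 23 lysosomal, 0 of 29 respiratory chain and 0 of 26 glycolysis and hypoxia-response genes tested. Over all genes tested 0.806% were called, so counts of 0 in lists this short do not set them apart. The medians of these lists lay between -0.20 and 0.03. MHC class I genes had 0 calls of 14 and 13 values below 0 (median -0.41). Chil3, at 164 and 256 against 55.9 and 107 CPM, had the largest value of the alternative activation list and did not pass (1.36, adjusted p = 0.0892). Trem2, a lipid receptor, did not pass either (1.44, SE 0.39, adjusted p = 0.153). Its log2 fold change was 1.80 without cold replicate 2 and ran from 0.75 to 2.24 over 14 alternatives.

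The steepest falls with a mean above 20 CPM were in genes that other cell types express. The collagen gene Col1a1 stood at 15.3 and 0 CPM in cold and 261 and 107 CPM at room temperature (-4.25, adjusted p = 0.0307). Col4a1 stood at 4.08 and 1.85 against 31.4 and 66.4 CPM (-3.82, adjusted p = 0.0272). Their highest libraries were at 6.41% and 7.88% of the mean of their highest other class, fibroblasts and pericytes. Sparc (-3.37, adjusted p = 0.0215) and Igfbp7 (-2.39, adjusted p = 0.0247) are matrix genes. Measured likewise, they were at 4.13% of Schwann cells and 1.39% of endothelium. The endothelial list given above was lower in both cold libraries than in either room temperature one, while the fibroblast list was lowest in cold replicate 2, highest in room temperature replicate 1 and nearly equal in the other two. With cells of 3 or more UMIs of other-lineage markers left out, these 4 genes were not among the 4171 tested, and the part of other cells' RNA in these falls was not tested. In all, 5 of the 49 genes called lower had their highest library below 5% of another class's mean: Sparc, Igfbp7, Ccl5, Pmp22 and Gzma. Of the 17 called higher, 0 did.

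Folr2/Cd209f macrophages of the same libraries had 240 of 10690 genes called (2.25%), 94 higher (0.879%) and 146 lower (1.37%), from more cells and UMIs. A test of the difference in cold effect between the classes, with library as a block, called 2 of 10303 genes (0.0194%), 1 in each direction (0.00971% each), and 784 had an unadjusted p under 0.05. Leaving out cold replicate 1 gave 209 and leaving out cold replicate 2 gave 35. Leaving out room temperature replicate 1 gave 7, and leaving out room temperature replicate 2 gave 0. Of the genes called in members, Gzma alone passed this test. Hspa1a rose by 2.47 in members and 1.38 (SE 0.18, adjusted p = 0.00994) in Folr2/Cd209f macrophages, a difference of 1.06 (SE 0.17, adjusted p = 0.132). For Hspa1b the difference was 1.41 (SE 0.18, adjusted p = 0.0591). The log2 fold changes of Il1b were -2.16 and -0.94 (adjusted p = 0.0551), from a far lower level in Folr2/Cd209f macrophages (19.3 and 26.9 against 38.6 and 49.3 CPM), and the difference of -1.36 had an adjusted p of 0.207. Ddit4 rose in both classes (3.28 and 3.66, the second with adjusted p = 0.000102), with a difference of -0.40 (adjusted p = 0.875).

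Tnf, the other gene called, had UMIs in every library. In Folr2/Cd209f macrophages it stood at 19.3 and 17.1 CPM in the cold and 107 and 89.2 CPM at room temperature (-2.41, SE 0.19, adjusted p = 0.00188), whereas members stayed between 67.1 and 100.0 CPM in all libraries. At room temperature the 2 classes had similar levels, and in cold the members had the higher one. The difference in cold effect was 2.40 on the log2 scale (SE 0.24, adjusted p = 0.0265). It passed in 12 of the 14 alternatives that gave an adjusted p and did not without room temperature replicate 2 (2.28, adjusted p = 0.220) or with at least 4 Lyz1 and Ear2 UMIs per member (1.89, adjusted p = 0.195), over a range from 1.00e-13 to 0.220. Within members, Tnf was higher in Lyz1-negative cells in all 4 libraries, by the most in cold replicate 1 (259 against 50.8 CPM). Thinned to 2000 UMIs, 14.9%, 8.93%, 16.0% and 10.3% of members and 5.95%, 4.52%, 19.5% and 15.7% of Folr2/Cd209f macrophages held a Tnf UMI (unthinned members 32.7%, 20%, 35.8% and 28.2%).

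The granzyme gene Gzma had no UMI in cold members and 14.7 and 29.5 CPM in room temperature members. The higher of these was 0.584% of its mean in natural killer and innate lymphoid cells. In Folr2/Cd209f macrophages Gzma stood at 0 and 49.2 CPM in the cold and 0.875 and 2.83 CPM at room temperature, so 1 cold library held most of it there. Ccl2 and Cxcl2 had the same sign of difference as Tnf without passing. Ccl2 had a log2 fold change of -0.44 in members and -1.78 (adjusted p = 0.00188) in Folr2/Cd209f macrophages, a difference of 1.32 (adjusted p = 0.207), and Cxcl2 had -0.42 and -1.27 (adjusted p = 0.00996), a difference of 0.87 (adjusted p = 0.221). Fn1 had 0.09 and -2.09 (adjusted p = 0.0257), a difference of 2.10 (adjusted p = 0.203), from levels far lower in Folr2/Cd209f macrophages.

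**Figure D5:**
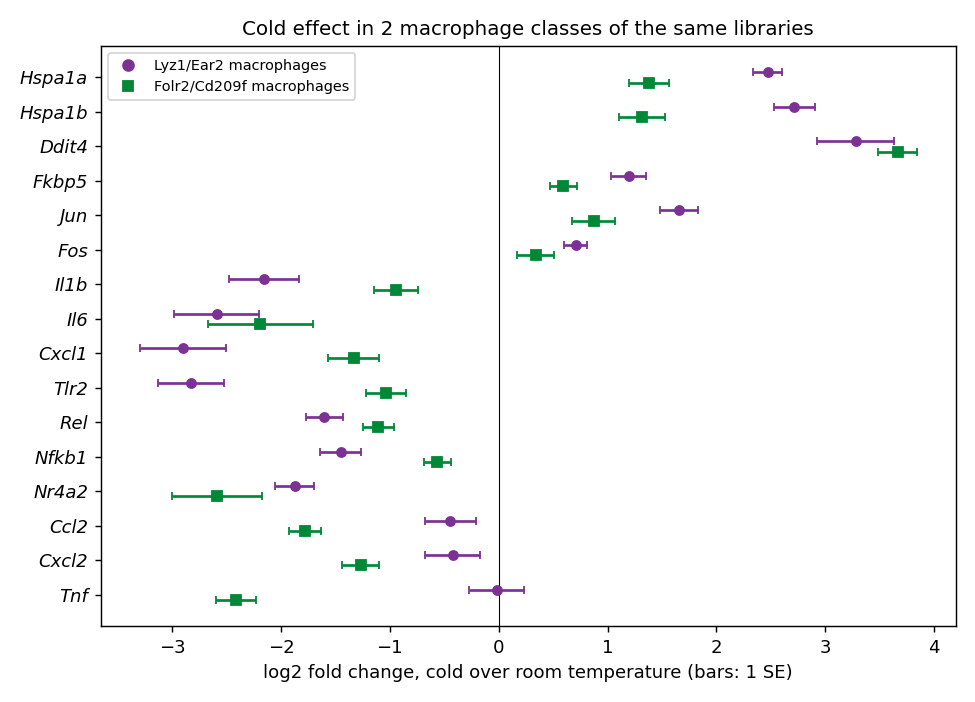
Log2 fold change of cold over room temperature (horizontal axis, bars 1 SE) for 16 genes in Lyz1/Ear2 macrophages (circles) and Folr2/Cd209f macrophages (squares) of the same 4 libraries. The points lie on the same side of 0 for every gene, and Tnf, at -0.02 and -2.41, is the 1 gene shown whose difference passed the test.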

How the data were processed

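Single-cell RNA sequencing of the stromal vascular fraction gave 4 libraries, 2 after 24 h at 4 °C and 2 at room temperature. The authors deposited 1 matrix of raw UMI counts for each library. Per the submitters' processing notes, Cell Ranger 3.0.2 and Seurat were used with mm10 (GRCm38). Sources used here do not give how empty droplets were removed.

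Members and gene lists were chosen with earlier results of these data known. Counts were summed over the members of each library and tested with edgeR 4.0.16 in R 4.3.3 (quasi-likelihood, TMM scaling, its default filter on low counts, Benjamini-Hochberg over all genes tested, threshold 0.05). The difference between classes was tested with library as a block. Shares of cells have exact binomial (Clopper-Pearson) 95% intervals, which cover counting error only, and an exact permutation test over libraries. No doublet caller was run. Cells that passed both macrophage gates were left out of both classes, and cells with 3 or more UMIs of another lineage's markers were left out in 1 alternative. DESeq2 1.42.0 was another. The test was also run on simulated libraries, where 2 of 7696 unchanged genes were called.

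Named genes were the 12 largest changes each way among called genes with at least 20 CPM and no overlap between conditions, up to 4 called genes per list, and 18 genes set by name. Nfkb1, Nfkbid, Nfkbie, Bcl3, Malt1, Tnfaip3, Nfkbia, Fosl2, Gzma and uncalled list members outside this rule were named after their values were seen. Gene positions are from the annotation of GRCm38.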

Additional observations from a re-analysis of the deposited data

Results flagged for a closer look

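The cold effect on Tnf differed between Lyz1/Ear2 and Folr2/Cd209f macrophages by 2.40 on the log2 scale (edgeR quasi-likelihood test with library as a block, adjusted p = 0.0265), with a value of -0.02 in the first class and -2.41 in the second. Tnf was lower in cold in both libraries of Folr2/Cd209f macrophages, and the groups overlapped in Lyz1/Ear2 macrophages.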

How the results depend on the processing

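The count of 66 changed genes became 531 with no filter on low counts, 385 with the replicate block, 100 with cells carrying other-lineage markers left out (4171 genes tested) and 149 with the deepest 5% of cells left out. It ran from 162 to 471 when 1 library was left out. The count of 2 genes that differed between classes became 173 with no filter, 138 with the replicate block, 0 with at least 4 Lyz1 and Ear2 UMIs, 7 with Folr2 and Cd209f at 0, 51 without other-lineage cells, 53 without the deepest cells and 8 with DESeq2, and ran from 0 to 209 when 1 library was left out. The cause of these moves was not tested. The same-numbered libraries deviated together only weakly (correlation 0.203 over 5444 genes, 2 pairs), so the replicate numbers were not taken to pair the libraries. All 66 genes were also called with the block, without the filter and without the deepest cells.

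The share of kept cells kept its direction in every alternative run (-3.56 to -0.898 percentage points). Shares were not fitted with the replicate block. The share of gated macrophages moved from -1.93 to -4.37 with every cell thinned to 2000 UMIs and ran from -5.97 to 2.10 when 1 library was left out. It was 0.468 with other-lineage cells left out of the members only. The gated macrophages that the members were divided by were not filtered, so that value is not a share among macrophages without other-lineage cells. For the 36 called named genes, 507 of 533 values over the alternatives stayed past the threshold, 26 did not and 0 changed sign, and 23 genes were called in every alternative that tested them. Besides calls named in the report, those of Isg15 and Col1a1 were lost in 2 alternatives and those of Rgs1, Sparc, Ccl5, Nfil3 and Col4a1 in 1, none by leaving out a library.

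Log2 fold changes of uncalled genes changed sign near 0. Retnla was 0.00197 with Folr2 and Cd209f at 0 and 0.0758 without other-lineage cells. H2-Aa was 0.0047 without Ly6c2 cells, 0.0725 without other-lineage cells and 0.0145 without the deepest cells. Lyz2 was -0.0173 with no filter. Tnf was 0.118 with Folr2 and Cd209f at 0, 0.103 without Ly6c2 cells, 0.237 without other-lineage cells and 0.0363 without the deepest cells. With 1 library left out, values ran from -0.306 to 0.115 for Retnla, -0.153 to 0.0445 for H2-Aa, -0.223 to 0.238 for Lyz2, -0.0278 to 0.371 for Mrc1, -0.0857 to 0.164 for Ccr2, -0.154 to 0.228 for Ccl9 and -0.317 to 0.299 for Tnf. Igf1 was 0.255 without cold replicate 2 and had a fitted value of -7.44 without cold replicate 1, where cold replicate 2 held no UMI.

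With 60 to 246 members and 539888 to 2039267 UMIs a library, changes of 1 on the log2 scale were often missed in simulation. Each condition had 2 libraries, so the exact test of a share cannot reach the threshold. Members carried RNA of fibroblasts and luminal cells, in amounts that differed between libraries. Whether that RNA was free or came from attached cells was not tested, and warm digestion was shared by all libraries.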
